A study of Homo sapiens with 48 samples.

Results

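A set of 52 genes that copy DNA or supply what copying needs was followed by RNA sequencing in DLD-1 cells, an established human colorectal cancer line, after removal of CNOT1 or CNOT4. The members were named genes from a fixed list, matched by symbol among the 58721 gene identifiers of the study, and all 52 were found and passed the filters on low values in both sets of libraries. All lines carried TIR1 (TIR1+), a plant auxin receptor. When auxin is added, it marks for destruction any protein fused to the matching degron (AID). The parental cells had no degron, CNOT1-AID cells had it at the CNOT1 gene and CNOT4-AID cells at the CNOT4 gene. In the steady-state set each line was left untreated or given 1 mM auxin, for 8 h or 24 h. In the triptolide set each line received 1 mM auxin for 2 h and then 1 µM triptolide, a drug that blocks the start of transcription, for 0, 3, 6 or 12 h. Each set had 24 libraries in 12 groups of 2, and whether each degron line was 1 clone was not stated in the labels used here.

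CNOT1 is the scaffold of CCR4-NOT, the main deadenylase of the cell, whose trimming of poly(A) tails opens the way to mRNA decay, and CNOT4 is a ubiquitin ligase that joins it. Copying of DNA begins when origins are licensed in G1 by ORC, CDC6 and CDT1, which load the MCM2 to MCM7 helicase. The helicase is switched on by CDC45 and GINS, after which primase, the polymerases, the PCNA clamp and its loaders build the new strands. Many of these genes are transcribed in waves at the G1/S border by E2F factors, and several of their products are made and destroyed within each cell cycle.

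Levels below are TPM (transcript abundance corrected for gene length and library size) after scaling by the trimmed mean of M values (TMM), which sets each library relative to the bulk of its genes. Mean levels over the 12 untreated libraries ran from 7.09 for CASP8AP2 and 9.34 for POLE2 to 195 for RRM2 and 201 for PCNA. Scaling divisors ran from 0.657, in the first replicate of the 8 h auxin group of the CNOT4-AID line, to 1.282. Of 15 colon epithelium markers 11 averaged at least 1 TPM over the libraries, with CDX1, VIL1, LGALS4 and MUC2 below it. Of the markers of other cell types, 1 of 7 blood, 0 of 8 fibroblast and 0 of 4 endothelium genes reached that level. Triptolide libraries held 18216427 to 26723618 counts, and the members 110 to 16557 counts per library. Among the triptolide pairs, parental replicates at 0 h were least alike (r = 0.978, against at least 0.991 in the others).

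Short stretches of promoter are given first because E2F sites are a known common feature of these genes. RefSeq promoters (GRCh38.p14) were found for 44 of the 52 members. The 250 bases before the start were searched on both strands for TTTCCCGC, TTTGGCGC, TTTGCCGC and TTTCGCGC. A match was present in 15 of 44 members (34.1%) and in 761 of all 27305 promoters (2.79%). Below, 30 bases around the match nearest the start are printed on the strand of the gene, with the matches in capitals. CDT1 and DTL were above untreated after CNOT1 loss, GINS2, POLE, TYMS and MCM6 were below, and PCNA did not pass the test on the TMM scale.
CDT1 (chr16:88803743-88803772, + strand): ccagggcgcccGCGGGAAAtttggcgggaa
DTL (chr1:212035729-212035758, + strand): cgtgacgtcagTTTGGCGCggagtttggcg
GINS2 (chr16:85688967-85688996, - strand): ctctcgccgtgGCGGGAAAacggcggccgc
POLE (chr12:132687342-132687371, - strand): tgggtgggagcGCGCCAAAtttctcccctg
TYMS (chr18:657603-657632, + strand): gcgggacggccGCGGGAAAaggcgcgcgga
MCM6 (chr2:135876511-135876540, - strand): ggtcaggTTTGGCGCGAAAtctccagctcc
PCNA (chr20:5126663-5126692, - strand): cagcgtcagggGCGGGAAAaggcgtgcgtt
The same letters, GCGGGAAA, thus stood 35 bases before the start of CDT1, 31 before that of GINS2 and 39 before that of TYMS. They also stood 59 bases before the start of PCNA, 55 before that of RFC3 and 14 before that of UHRF1, so the distance varied. A match in this window is a description of the letters and was not tested as a site of binding.

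Loss of CNOT1 split the replication genes. At 8 h, 14 of 52 rose and 24 fell relative to the bulk of genes, and at 24 h 8 rose and 32 fell (limma, adjusted p below 0.05 over all 14921 genes tested). The genes that rose included the licensing factors CDT1 and CDC6, the histone mRNA binding protein SLBP, the CDT1-destroying ligase subunit DTL, and MCM10. Those that fell included the whole MCM2 to MCM7 helicase, most of GINS, the large polymerase subunits and the enzymes of nucleotide supply. Among all genes tested, 62.8% were called at 8 h, 33.1% higher and 29.8% lower, and 71.5% at 24 h, 36.7% higher and 34.8% lower. The share of members called (73.1% and 76.9%) was therefore near the background at 24 h and somewhat above it at 8 h. By direction, 46.2% of members were lower at 8 h and 61.5% at 24 h, and 26.9% and 15.4% were higher. The median log2 difference of the members was -0.13 at 8 h and -0.40 at 24 h, where the median of all genes tested was 0.00 and -0.01.

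**Figure D1:**
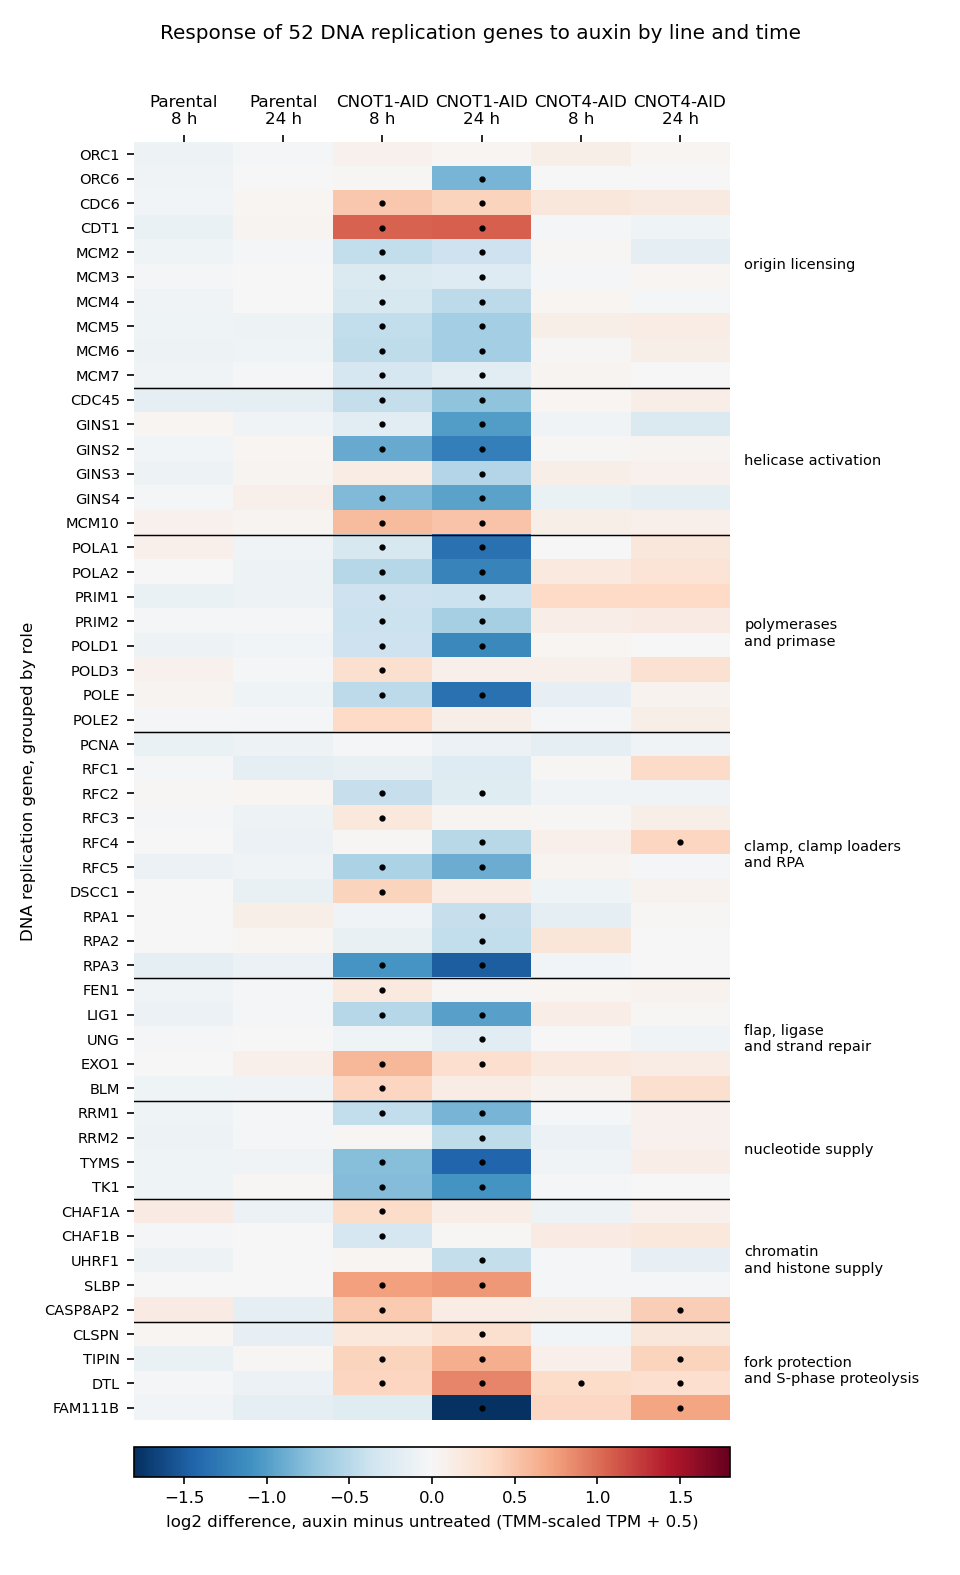
Log2 difference between auxin and untreated libraries for each of the 52 genes (rows, by role) in each line and time (columns, 2 libraries against 2), on the scale of log2(TMM-scaled TPM + 0.5), with a dot where the adjusted p was below 0.05. Dots fill most of the CNOT1-AID columns (38 genes at 8 h and 40 at 24 h), 1 and 5 genes in the CNOT4-AID columns and none in the parental columns.

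The size of the falls depended on how the libraries were put on a common scale. With libraries scaled to the added ERCC spike-in RNA, the median of all genes moved up by 0.41 at 8 h and 0.31 at 24 h, and the members split into 27 higher and 5 lower at 8 h and 18 and 18 at 24 h. Without scaling the splits were 23 and 6, and 17 and 21. The shares of all genes called under these scalings are not given here, so these counts and later ones under them have no background beside them. Of the 24 members called lower at 8 h, 15 lay above 0 with ERCC scaling (CDC45, CHAF1B, GINS1, MCM2 to MCM7, POLA1, POLD1, PRIM1, PRIM2, RFC2 and RRM1), and of the 32 at 24 h, 5 did (MCM2, MCM3, MCM7, RFC2 and UNG). None of the members called higher changed sign. Under all 4 scalings tried, 13 members were higher and 5 lower at 8 h, and 8 were higher and 18 lower at 24 h. The 5 at 8 h were GINS2, GINS4, RPA3, TYMS and TK1. The 18 at 24 h were ORC6, MCM5, MCM6, CDC45, GINS1, GINS2, GINS4, POLA1, POLA2, POLD1, POLE, RFC5, RPA3, LIG1, RRM1, TYMS, TK1 and FAM111B. Below, "rose" and "fell" refer to the TMM scale unless stated, and the roles are taken in the order in which they act.

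Of the 10 origin licensing genes, 2 rose and 6 fell at 8 h, and 2 rose and 7 fell at 24 h. CDT1, which brings the helicase to origins, stood at 37.0 and 27.5 TPM in the untreated CNOT1-AID libraries at 8 h and at 68.0 and 66.1 with auxin. At 24 h the untreated libraries gave 28.3 and 32.7 and the auxin libraries 63.5 and 66.0, so that auxin and untreated values lay far apart at both times. The log2 difference of CDT1 was 1.06 ± 0.11 (SE, n = 2 libraries per group, adjusted p = 3.64e-07) at 8 h and 1.08 ± 0.11 (adjusted p = 1.82e-07) at 24 h. CDC6, which acts with CDT1, went from 51.2 and 50.8 to 71.2 and 72.4 TPM at 8 h (0.49 ± 0.05) and was 0.40 ± 0.05 higher at 24 h. ORC1, the largest subunit of the origin recognition complex, differed by 0.08 and 0.04 and was not called. With ERCC scaling ORC1 was called higher at both times (0.54 and 0.41). ORC6, the smallest subunit of that complex, held at 30.1 and 29.6 TPM with auxin for 8 h and stood at 16.3 and 15.8 after 24 h, against 28.9 and 29.3 untreated, a fall of 0.84 ± 0.05 on the log2 scale (adjusted p = 4.7e-10). With ERCC scaling ORC6 was called higher at 8 h (0.48) and lower at 24 h (-0.47).

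All 6 subunits of the MCM2 to MCM7 helicase fell at both times, by 0.25 to 0.45 at 8 h and 0.21 to 0.62 at 24 h on the log2 scale, but with ERCC scaling only MCM3 was called at 8 h, as higher, and only MCM5 and MCM6 were called at 24 h, as lower. MCM6 went from 59.0 and 56.2 TPM to 43.3 and 40.7 at 8 h (-0.45 ± 0.05, adjusted p = 2.99e-07) and from 53.6 and 54.8 to 36.1 and 34.2 at 24 h. MCM2 went from 95.4 and 80.8 to 63.1 and 65.8 at 8 h (-0.44 ± 0.07). MCM5 fell most of the 6 at 24 h, from 55.7 and 58.8 to 35.9 and 38.4 (-0.62 ± 0.09). With ERCC scaling MCM2 and MCM6 differed by 0.02 and 0.01 at 8 h.

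Of the 6 helicase activation genes 1 rose and 4 fell at 8 h, and 1 rose and 5 fell at 24 h. GINS2, a subunit of the ring that joins CDC45 to the helicase, went from 23.4 and 19.9 TPM to 10.9 and 11.6 at 8 h and from 20.6 and 18.1 to 7.87 and 7.94 at 24 h. Its log2 difference was -0.91 ± 0.09 (adjusted p = 1.02e-07) and -1.24 ± 0.09 (adjusted p = 1.23e-09). GINS4 fell by 0.79 ± 0.11 and 0.96 ± 0.11. GINS1 lay at 17.6 and 17.3 TPM with auxin for 8 h and at 9.43 and 9.45 after 24 h, against 19.9 and 19.0 untreated (-1.0 ± 0.08 at 24 h). GINS3 was 0.13 above untreated at 8 h and not called, and 0.53 ± 0.08 below at 24 h. MCM10, needed for the helicase to start unwinding, went the other way, from 18.6 and 21.9 TPM to 30.5 and 30.1 at 8 h (0.57 ± 0.09) and from 20.4 and 19.1 to 28.9 and 27.8 at 24 h (0.51 ± 0.09).

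Among the 8 polymerase and primase genes, 1 rose and 6 fell at 8 h, and 6 fell at 24 h. POLE, the catalytic subunit of the leading-strand polymerase, went from 33.7 and 32 TPM to 24.3 and 22.7 at 8 h (-0.48 ± 0.07) and from 29.5 and 29.2 to 11.6 and 10.8 at 24 h (-1.35 ± 0.07, adjusted p = 1.24e-11). POLA1, the catalytic subunit of the polymerase that extends primers, went from 9.30 and 9.25 TPM to 3.77 and 2.97 at 24 h (-1.35 ± 0.09). Its partner POLA2 fell by 0.51 ± 0.09 at 8 h and 1.21 ± 0.09 at 24 h, and POLD1, the catalytic subunit of the lagging-strand polymerase, by 0.37 ± 0.10 and 1.16 ± 0.10. The primase genes PRIM1 and PRIM2 were lower by 0.37 and 0.39 at 8 h. With ERCC scaling the 8 h values of POLD1, PRIM1, PRIM2 and POLA1 were 0.10, 0.08, 0.06 and 0.15, none called. Those of POLE and POLA2 were then -0.02 and -0.05, also not called. POLD3, an accessory subunit, rose by 0.29 ± 0.10 at 8 h, a call that was lost without any of 3 libraries (0.08 without replicate 1 of untreated CNOT1-AID cells at 8 h, adjusted p = 0.426, and 0.28 and 0.29 without either auxin library), and POLE2 differed by 0.36 and 0.10 without passing the test.

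PCNA, the sliding clamp and the most abundant member, did not pass the test at either time on the TMM scale. With ERCC scaling it was called higher at both (0.44 ± 0.10, adjusted p = 0.000964, and 0.28 ± 0.10, adjusted p = 0.0207). Its untreated libraries held 193 and 191 TPM and its auxin libraries 194 and 183 at 8 h, and 194 and 196 against 183 and 181 at 24 h (log2 differences of -0.03 and -0.10, adjusted p = 0.649 and 0.0754). Of the 10 genes for the clamp, its loaders and RPA, 2 rose and 3 fell at 8 h and 6 fell at 24 h. RPA3, the smallest subunit of the single-strand binding protein RPA, went from 38.6 and 34.9 TPM to 17.2 and 17.5 at 8 h and from 40.1 and 36.8 to 14.3 and 12.6 at 24 h. Its differences were -1.06 ± 0.09 (adjusted p = 3.91e-08) and -1.49 ± 0.09 (adjusted p = 2.83e-10). The other RPA subunits moved less, with RPA1 and RPA2 at -0.06 and -0.13 at 8 h, neither called, and at -0.41 and -0.44 at 24 h, both called. With ERCC scaling both were called higher at 8 h (0.40 and 0.33) and neither was called at 24 h (-0.04 and -0.07). RFC5, a subunit of the clamp loader, fell by 0.56 ± 0.04 and 0.90 ± 0.04. With ERCC scaling its 8 h value was -0.10, not called. DSCC1, of an alternative loader, rose by 0.40 ± 0.09 at 8 h and RFC3 by 0.20 ± 0.08. The call of RFC3 was lost without replicate 1 of the untreated CNOT1-AID libraries at 8 h (0.08) or either auxin library (0.16 and 0.23).

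Genes that finish and repair the new strands were mixed. EXO1, an exonuclease, went from 19.5 and 22.3 TPM to 31.9 and 32 at 8 h (0.60 ± 0.08, adjusted p = 2.6e-06), and was 0.30 ± 0.08 higher at 24 h. The helicase gene BLM was 0.39 ± 0.14 higher at 8 h, but its untreated libraries stood at 6.52 and 9.62 TPM, and without the lower of them the difference was 0.13 (adjusted p = 0.393). Without replicate 1 of the auxin libraries it was 0.35 (adjusted p = 0.0956). FEN1, which trims flaps, rose by 0.17 ± 0.06 at 8 h. LIG1, the ligase that seals them, went from 44.7 and 40.9 TPM to 28.4 and 31.0 at 8 h (-0.52 ± 0.08) and from 36.7 and 40.8 to 18 and 20.9 at 24 h (-0.98 ± 0.08). With ERCC scaling the 8 h value of LIG1 was -0.06, not called. UNG, a uracil glycosylase, was lower by 0.21 ± 0.05 at 24 h on the TMM scale, but 0.17 and 0.05 above untreated with ERCC scaling and without scaling.

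On the TMM scale the 4 genes of nucleotide supply held no riser: 3 fell at 8 h and 4 at 24 h. TYMS, which makes thymidylate, went from 163 and 147 TPM to 88.2 and 93.9 at 8 h (-0.76 ± 0.06, adjusted p = 5.31e-09) and from 151 and 153 to 53.5 and 58.5 at 24 h (-1.43 ± 0.06, adjusted p = 1.02e-12). TK1, which salvages thymidine, went from 166 and 138 to 86.9 and 89.5 at 8 h (-0.78 ± 0.07) and from 137 and 143 to 64.2 and 68.2 at 24 h (-1.08 ± 0.07). The subunits of ribonucleotide reductase parted at 8 h, with RRM1 at -0.45 ± 0.05 (0.02 and not called with ERCC scaling) and RRM2 at 0.02, not called. By 24 h RRM1 stood at 75.0 and 74.5 TPM against 135 and 133 untreated, and RRM2 at 142 and 145 against 194 and 200. TYMS and TK1 were called lower at both times under all 4 scalings, and RRM1 at 24 h. With ERCC scaling RRM2 was called higher at 8 h (0.49) and was not called at 24 h (-0.08).

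Among the 5 genes of chromatin and histone supply, SLBP stood out. It binds the stem-loop of histone mRNAs, and its own mRNA went from 74.6 and 68.7 TPM to 114 and 126 at 8 h (0.74 ± 0.06, adjusted p = 1.09e-08) and from 69.6 and 66.2 to 121 and 113 at 24 h (0.78 ± 0.06, adjusted p = 3.13e-09). CASP8AP2, a factor of histone gene transcription, rose by 0.48 ± 0.11 and CHAF1A, of the histone chaperone CAF-1, by 0.33 ± 0.10 at 8 h, and neither was called at 24 h. With ERCC scaling both were called higher at 24 h (0.50 each). CHAF1B, the partner of CHAF1A, fell by 0.30 ± 0.09 at 8 h, stood at 0.15 with ERCC scaling and lost its call without replicate 1 of the untreated (-0.19) or auxin libraries (-0.26). At 24 h CHAF1B was called higher with ERCC scaling (0.39). UHRF1, which carries DNA methylation through S phase, differed by 0.04 at 8 h and fell by 0.43 ± 0.04 at 24 h. With ERCC scaling UHRF1 was called higher at 8 h (0.50) and was not called at 24 h (-0.05).

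Of the 4 genes of fork protection and S-phase proteolysis, 2 rose and 0 fell at 8 h, and 3 rose and 1 fell at 24 h. DTL, the substrate receptor of the ligase that destroys CDT1 in S phase, went from 17.4 and 17.7 TPM to 22.8 and 23.4 at 8 h (0.38 ± 0.06) and from 15.5 and 16.2 to 30 and 29.1 at 24 h (0.88 ± 0.06, adjusted p = 1.43e-09). TIPIN, of the fork protection complex, rose by 0.40 ± 0.09 and 0.65 ± 0.09, and CLSPN, a checkpoint mediator at the fork, by 0.29 ± 0.11 at 24 h. FAM111B, a protease, lay within the spread of its untreated libraries at 8 h (14.1 and 24.0 TPM untreated, 16.8 and 14.7 with auxin) and at 5.77 and 5.32 TPM after 24 h, against 21.1 and 19.5 (-1.78 ± 0.19, adjusted p = 3.27e-07).

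**Figure D2:**
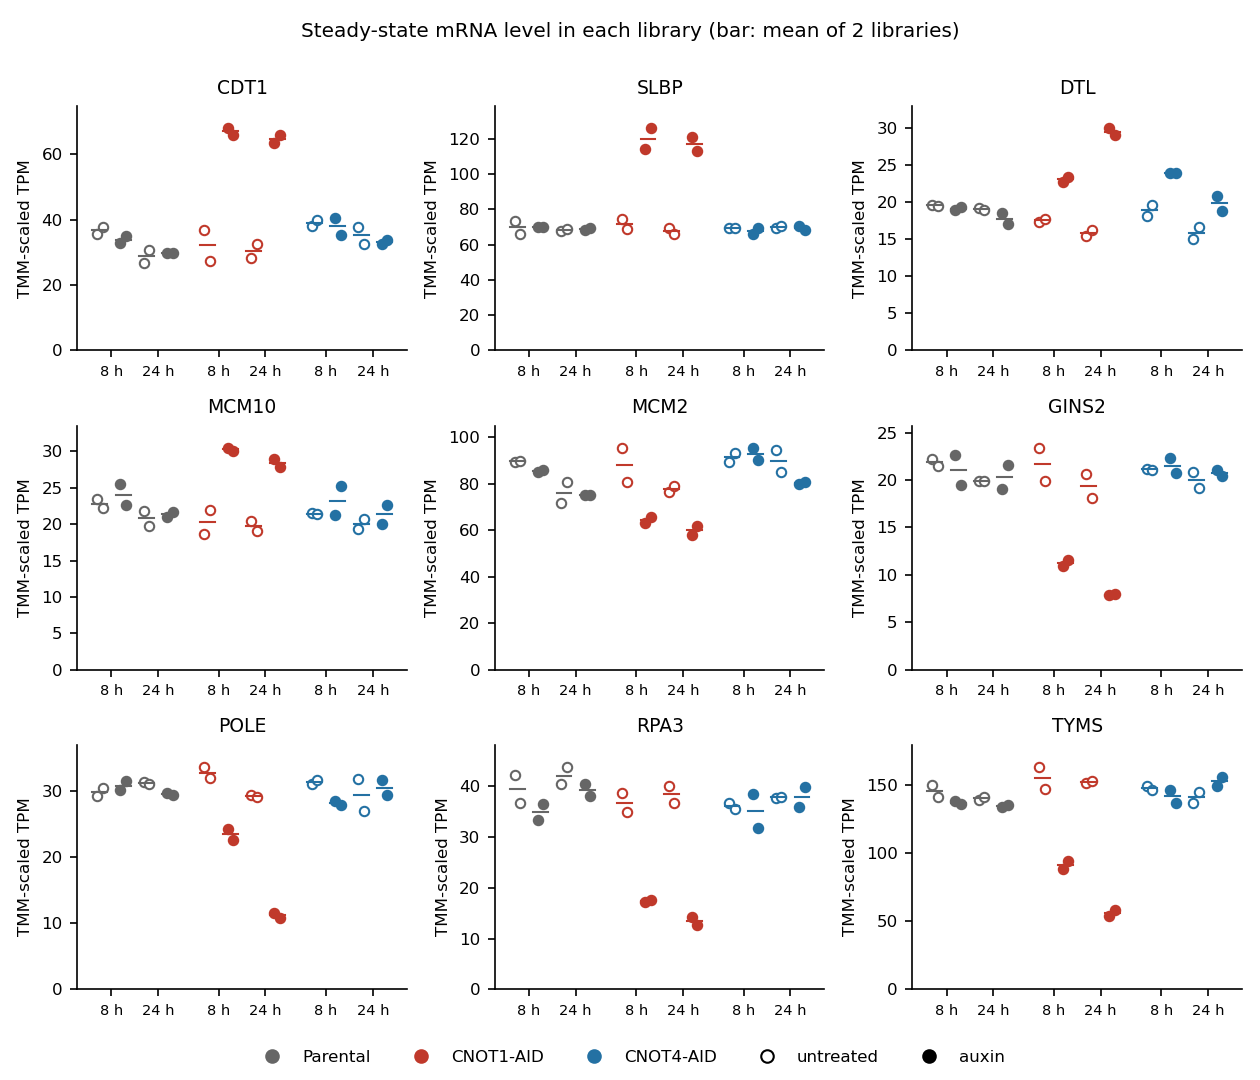
TMM-scaled TPM (y axis, from 0) of 9 genes in each of the 24 steady-state libraries, by line (colour) and time, with open points for untreated and filled points for auxin libraries and a bar at each mean of 2. In CNOT1-AID cells the auxin points of CDT1, SLBP, DTL and MCM10 lie above, and those of the other 5 genes below, every untreated point of the same line and time.

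Auxin alone did little in parental cells. No member was called at 8 h or 24 h, where 0.0201% (0.0134% higher, 0.0067% lower) and 0% of all genes were called, and 3 and 1 members had an unadjusted p under 0.05 (835 and 755 of all genes). At 8 h the parental differences ran from -0.17, in RPA3, to 0.15, in CHAF1A, and at 24 h RFC1 and FAM111B were lowest (-0.18 and -0.17). Both auxin libraries lay below both untreated libraries for 25 members at 8 h and 17 at 24 h, and above for 4 and 1. The share of all genes that lay so is not given here, so these counts are not a result about the members. Set against the parental response, the CNOT1-AID response was higher for 10 members and lower for 20 at 8 h (50.3% of all genes called), and higher for 7 and lower for 31 at 24 h (61.9%). CDT1 differed most upward, by 1.17 ± 0.16 at 8 h and 1.03 ± 0.16 at 24 h. RPA3 differed by -0.89 ± 0.13 and FAM111B at 24 h by -1.61 ± 0.27. With ERCC scaling these splits were 26 higher and 0 lower at 8 h and 16 and 15 at 24 h, and 15 members were lower at 24 h under all 4 scalings.

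The response of the members moved mostly downward between 8 h and 24 h. In a direct test of the CNOT1-AID response at 24 h against that at 8 h, 22 members were lower and 1, DTL, was higher (0.50 ± 0.09, adjusted p = 0.000405), where 36.3% of all genes were called. The largest moves were those of FAM111B (-1.56 ± 0.27), POLA1 (-1.05 ± 0.13) and POLE (-0.87 ± 0.09). CDT1, SLBP and MCM2 differed between the times by 0.02, 0.04 and 0.07, and none was called. With ERCC scaling 19 members were lower and DTL was not called, and 17 were lower under all 4 scalings.

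Loss of CNOT4 moved few of these genes. At 8 h DTL was the single member called, going from 18.1 and 19.7 TPM to 23.9 and 24.0 (0.34 ± 0.06, adjusted p = 0.0368), where 0.288% of all genes were called, 0.241% higher and 0.0469% lower. That call was lost without any of 10 libraries: either auxin library at 8 h of any of the 3 lines, either CNOT1-AID auxin library at 24 h, or either untreated CNOT4-AID library at 8 h. Without replicate 1 of the CNOT4-AID auxin libraries at 8 h, the library with the lowest scaling divisor, 2 other members were called. Without the filter on low values no member was called. At 24 h 5 members rose and 0 fell, against 4.51% of all genes called, 2.09% higher and 2.42% lower: FAM111B, CASP8AP2, TIPIN, RFC4 and DTL. FAM111B went from 17.6 and 21.8 TPM to 32.7 and 32.1 (0.71 ± 0.19, adjusted p = 0.0455), CASP8AP2 from 5.37 and 5.73 to 7.74 and 7.72 (0.44 ± 0.11) and TIPIN from 12.2 and 12.3 to 16.9 and 15.8 (0.40 ± 0.09). The calls of CASP8AP2 and TIPIN were lost without any 1 of the CNOT4-AID libraries at 24 h. That of FAM111B was lost without replicate 1 of the untreated ones or either auxin one, and without many single libraries of other groups. The count was 0 without replicate 1 of the untreated or of the auxin CNOT4-AID libraries at 24 h, 1 without replicate 2 of the auxin ones and 3 without replicate 2 of the untreated ones. It was also 3 without any 1 of the untreated CNOT4-AID libraries at 8 h, the parental libraries at 8 h or the parental auxin libraries at 24 h, and 10 without either untreated CNOT1-AID library at 8 h. Without the filter on low values it was 1. None of the 6 calls held under all 4 scalings. No member passed the test of the CNOT4-AID response against the parental response, at 8 h (0.0134% of all genes called, 0.0067% higher and 0.0067% lower) or 24 h (0.067%, 0.0402% higher and 0.0268% lower). In those tests 6 and 13 members had an unadjusted p under 0.05. The number of all genes with such a p is not given here, so these 2 counts have no background beside them. The largest differences were PRIM1 (0.48) and FAM111B (0.43) at 8 h and FAM111B (0.88) and CASP8AP2 (0.60) at 24 h. Without replicate 1 or 2 of the untreated CNOT1-AID libraries at 8 h, 3 members were called at 24 h, and 1 without replicate 2 of the untreated CNOT4-AID libraries at 24 h.

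The untreated lines already differed slightly. Between untreated CNOT1-AID and parental cells 3 members were higher and 12 lower (20.7% of all genes called, 10.1% higher). CLSPN was 0.31 ± 0.08 higher, RFC2 and RRM1 0.16 and 0.12 higher, both calls that some single libraries decided, and FAM111B (-0.63 ± 0.13), BLM (-0.46 ± 0.10) and POLE2 (-0.39 ± 0.12) were lowest, with POLE2 losing its call without any of 4 libraries. The count fell to 9 without replicate 1 of the untreated parental libraries at 8 h or either untreated CNOT1-AID library at 24 h. Between untreated CNOT4-AID and parental cells 3 were higher and 5 lower (20.2%, 9.74% lower), led by CLSPN (0.48 ± 0.08), CASP8AP2 (-0.33 ± 0.08) and BLM (-0.32 ± 0.10), which lost its call without any of 5 libraries. This count was 3 without replicate 2 of the untreated CNOT4-AID libraries at 8 h, 4 without replicate 1 of those at 24 h, and 4 and 5 without replicate 1 of the untreated parental libraries at 8 h and 24 h. After 2 h of auxin, at 0 h of triptolide, 1 member was higher and 3 lower in CNOT1-AID than in parental cells (14.5% of all genes called). They were CLSPN (0.69 ± 0.07), TK1 (-0.53 ± 0.13), MCM7 (-0.31 ± 0.09) and MCM4 (-0.26 ± 0.07). In CNOT4-AID cells 5 were higher (12.0%), led by CLSPN (0.82 ± 0.07), FAM111B (0.60 ± 0.11) and FEN1 (0.36 ± 0.09). These 0 h counts turned on the parental pair that agreed least: without its replicate 2 they were 27 and 26, and without its replicate 1 they were 17 and 20. Without replicate 1 of that pair TK1 stood at -0.19 (adjusted p = 0.0515) and MCM7 at -0.12 (adjusted p = 0.187), neither called. Without either CNOT1-AID 0 h library the first count was 1, with TK1, MCM7 and MCM4 lost. The second was 3 without any 1 of 11 other parental or CNOT4-AID libraries. There is no untreated library in that set, so line and auxin cannot be told apart. On the TMM scale CLSPN was called higher than parental in both degron lines before any auxin. It stood at 21.6 to 28.6 TPM in untreated CNOT1-AID and 25 to 29.9 in untreated CNOT4-AID libraries, against 17.9 to 22.1 in untreated parental ones. The ranges of CNOT1-AID and parental cells overlapped, and those of CNOT4-AID and parental cells did not. In untreated CNOT1-AID cells no member, CLSPN included, was called higher with ERCC scaling or without scaling. In untreated CNOT4-AID cells none was called higher without scaling.

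The degron acts on the protein, so mRNA of the targeted genes does not check the depletion. CNOT1 mRNA stood at 53.1 and 58.0 TPM in untreated CNOT1-AID libraries at 8 h and 37.2 and 40.0 with auxin (-0.52 ± 0.07), and was lower by 0.82 ± 0.07 at 24 h. It was also lower in untreated CNOT1-AID than in untreated parental cells (-0.57 ± 0.05). CNOT4 mRNA rose in the CNOT1-AID line, from 7.48 and 9.06 TPM to 27.1 and 26.9 at 8 h (1.65 ± 0.08), and differed by 0.19 and 0.17 without passing the test in the CNOT4-AID line with auxin.

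Triptolide showed which of the replication mRNAs were short-lived. Slopes are given as log2 units per hour over 0 to 12 h, with libraries scaled to the spike-in RNA, and a half-life is the time to fall by 1 log2 unit. In parental cells 27 of 52 members declined by the test (49.0% of all genes called, 48.3% declining). In CNOT4-AID cells 52 of 52 did so (85.8% called, 85.6% declining), and in CNOT1-AID cells 1, FAM111B (11.0% called, 10.9% declining). The median slope of the members was -0.063 in parental, -0.018 in CNOT1-AID and -0.138 in CNOT4-AID cells, beside medians of -0.073, -0.026 and -0.148 over all 16806 genes tested. Of the mRNA present at 0 h, the median member had 60.1% left after 12 h in parental cells, 91.1% in CNOT1-AID and 31.5% in CNOT4-AID cells. At 3 h and 6 h the parental median was 98.8% and 102%, so that its fall was seen only at 12 h. Over 0 to 6 h alone, 10 members declined by the test in parental, 2 in CNOT1-AID and 27 in CNOT4-AID cells. The half-lives below assume a steady slope over 0 to 12 h. The parental half-lives of the 50 members with a slope below 0 ran from 3.41 h for CDT1, 3.91 h for GINS3 and 4.10 h for BLM upward, with a median of 15.8 h. Values beyond 12 h, the last time sampled, are extrapolations. The 5 fastest mRNAs were those of CDT1, GINS3, BLM, CDC6 and DTL. At the other end the parental slopes of TYMS and RPA3 were 0.0101 and 0.0012, and those of TK1 and LIG1 were -0.0054 and -0.0077, none of them called.

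In parental cells the 2 libraries at 12 h of triptolide held 7.97% and 8.36% of the 0 h mean of CDT1, where the CNOT1-AID libraries held 88.8% and 66.7% and the CNOT4-AID libraries 5.57% and 3.47%. For SLBP the same libraries held 21.4% and 20.9%, 115% and 91.9%, and 9.49% and 5.29%. DTL stood at 19.9% and 16.9%, 101% and 81.7%, and 12.9% and 6.92%. For these 3 mRNAs the CNOT1-AID values lay far above and the CNOT4-AID values below both parental values. TYMS, by contrast, held 121% and 99.2% in parental and 115% and 91.4% in CNOT1-AID cells at 12 h, which overlap, and 77.1% and 43.0% in CNOT4-AID cells. The lower member of the CNOT4-AID pair at 12 h came from the library in which the spike-in RNA took 3.92% of counts, against 2.25% in its partner, and the part of that gap in the CNOT4-AID slopes was not tested.

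**Figure D3:**
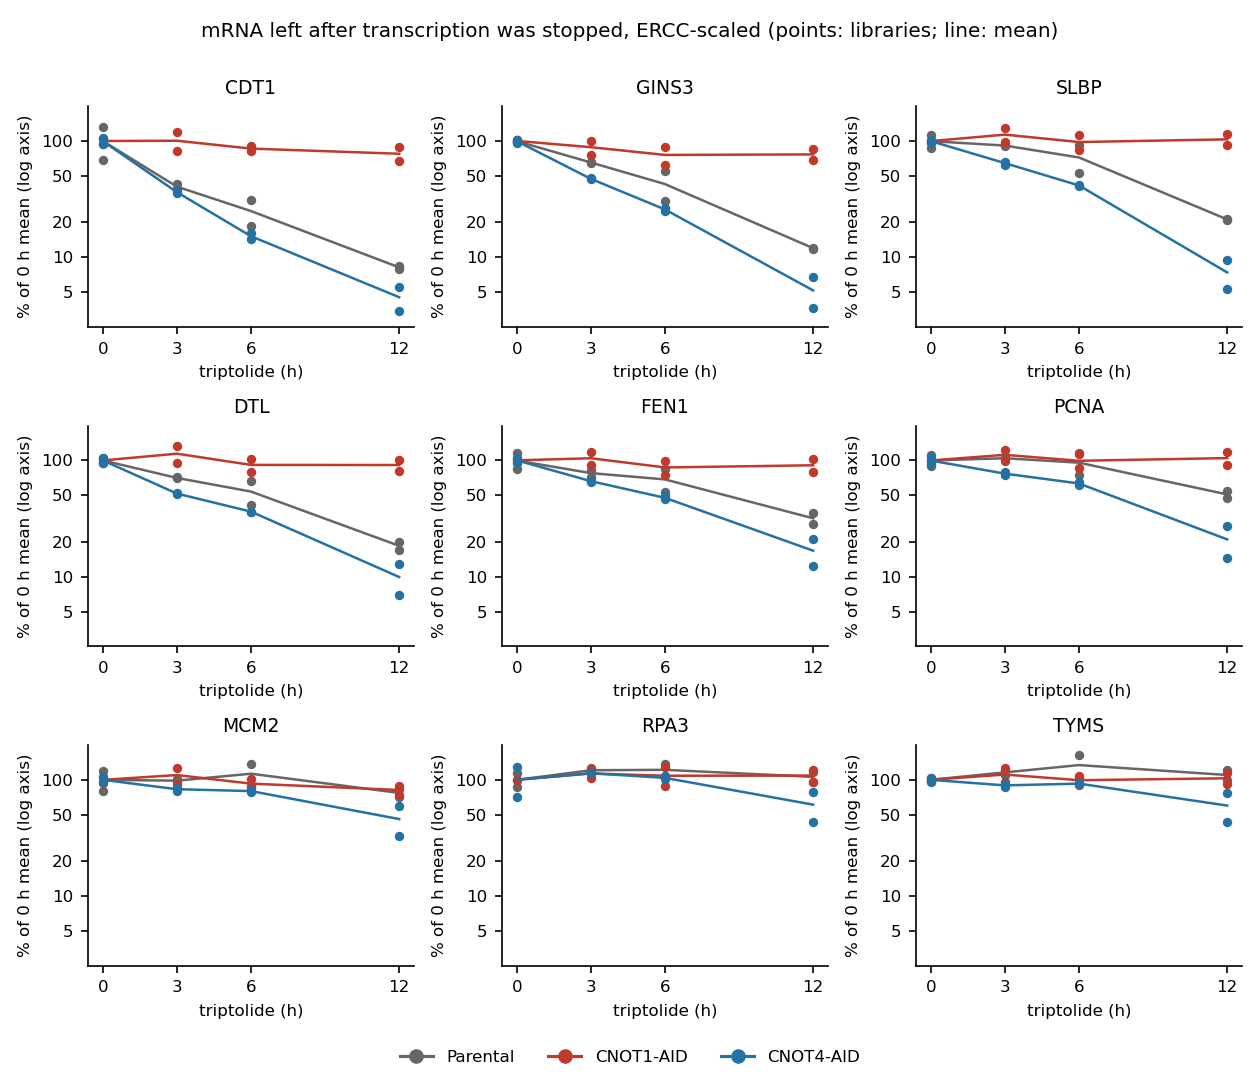
Percent of the 0 h mean left (log axis) against hours of triptolide for 9 genes, with points for single libraries and lines through the means of 2, by line. CDT1, GINS3, SLBP and DTL fall to 8.17% to 21.1% in parental cells after 12 h, lower in CNOT4-AID cells and less far in CNOT1-AID cells, while RPA3 and TYMS stay near 100% in parental and CNOT1-AID cells.

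Loss was slower without CNOT1 for 15 members and faster for 0, where 19.8% of all genes were called, 18.8% slower and 0.94% faster. The 15 were BLM, CASP8AP2, CDC6, CDT1, CHAF1A, DTL, EXO1, FEN1, GINS3, MCM10, ORC1, POLD3, RFC4, SLBP and TIPIN. The slope of CDT1 differed from parental by 0.260 ± 0.034 log2 units per hour (adjusted p = 5.63e-08), that of GINS3 by 0.224 ± 0.033 and that of BLM by 0.221 ± 0.035. None of the MCM2 to MCM7 genes and none of the 4 genes of nucleotide supply was called. With TMM in place of spike-in scaling, 17 members were called slower and 15 faster. Over 0 to 6 h alone 1 member was called. Without both parental 0 h libraries the count was 18. Against CNOT4-AID cells, loss was slower in CNOT1-AID cells for 39 members (51.5% of all genes slower), led by BLM (0.341 ± 0.035), CDT1 (0.336 ± 0.034) and GINS3 (0.323 ± 0.033). Between CNOT4-AID and parental cells no member was called by edgeR (0.845% of all genes called). With TMM in place of spike-in scaling none was called either, and the differences ran from -0.0507 to 0.0252, with a median of -0.0001. With spike-in scaling all 52 slopes were more negative in CNOT4-AID cells. The differences then ran from -0.044 to -0.123, with a median of -0.072 beside -0.075 over all genes. SLBP and BLM differed most (both -0.12). In that comparison 38 members had an unadjusted p under 0.05, 23 were called by DESeq2, and 46 were called when replicate 1 of the CNOT4-AID libraries at 12 h was left out. The count was 8 without replicate 2 of the parental libraries at 6 h, and 2 without replicate 1 of the parental libraries at 0 h or replicate 2 of the CNOT1-AID libraries at 3 h.

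The steady-state response was set beside mRNA loss, which was measured in separate libraries. Of the 15 members with slower loss without CNOT1, 12 rose at 8 h of auxin and 0 fell. The other 3, ORC1, GINS3 and RFC4, were not called. Of the remaining 37 members 2, DSCC1 and RFC3, rose and 24 fell. At 24 h 7 of the 15 rose and 2, GINS3 and RFC4, fell, while of the 37 others 1, CLSPN, rose and 30 fell. With ERCC scaling, which the slopes also use, all 15 were higher at 8 h, and of the 37 others 12 were higher and 5 lower. At 24 h 13 of the 15 were then higher and 0 lower, and of the 37 others 5 were higher and 18 lower. The same direction held over all genes tested in both sets: of 3100 genes with slower loss 78.4% rose and 6.29% fell at 8 h, and of the other 11002 genes 22.3% rose and 38.0% fell. Across the 52 members, the log2 difference in CNOT1-AID cells at 8 h and the slope in parental cells had a Pearson r of -0.768 and a Spearman rho of -0.718, and at 24 h -0.628 and -0.609. Over the 14102 genes of both sets r was -0.37 and -0.292. These are descriptions across genes, which are not independent replicates, and the points share their libraries.

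**Figure D4:**
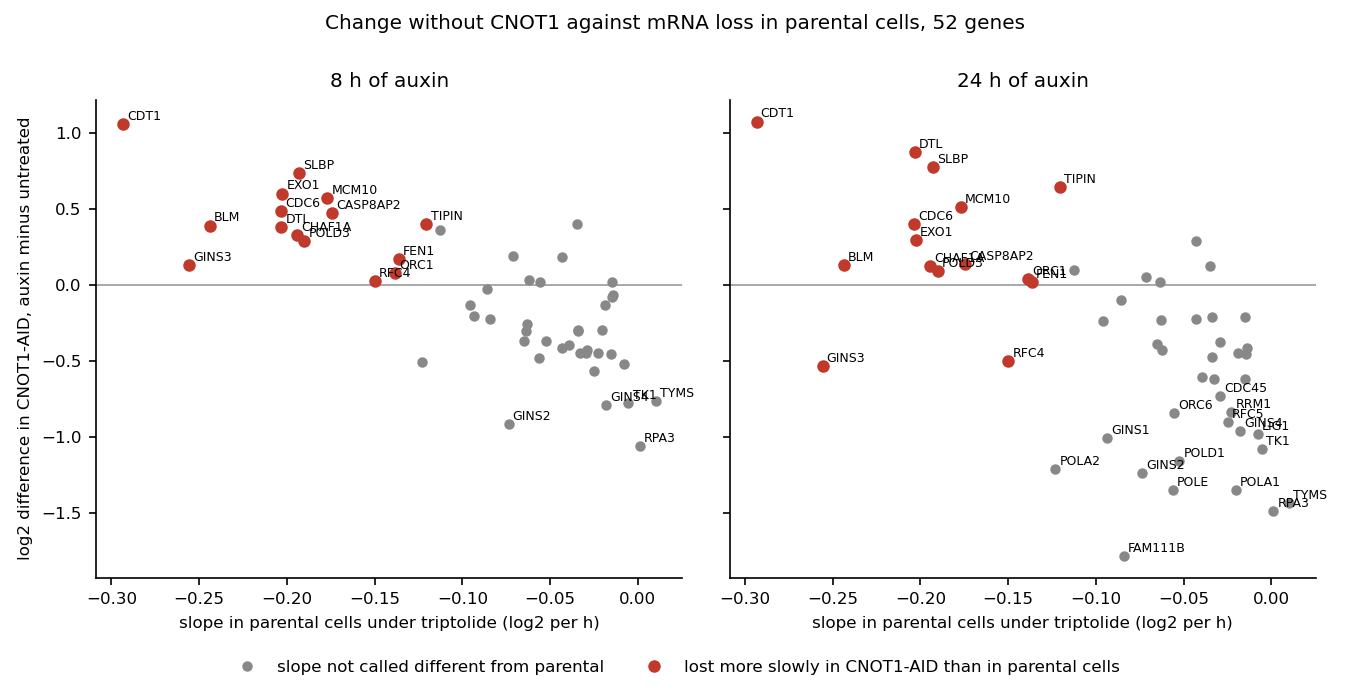
Log2 difference between auxin and untreated CNOT1-AID cells at 8 h (left) and 24 h (right) against the slope in parental cells under triptolide (log2 units per hour, more negative is faster loss), 1 point per gene, with the 15 genes of slower loss without CNOT1 in red. At 8 h all red points lie at or above 0, from 0.03 in RFC4 to 1.06 in CDT1, and the points with slopes near 0 are mostly below it.

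On the TMM scale a few genes did not keep to this split. GINS3 had the second fastest loss in parental cells (slope -0.256), and its level was not called at 8 h and was lower at 24 h. RFC4 behaved likewise (slope -0.150, log2 differences of 0.03 and -0.50). With ERCC scaling both were called higher at 8 h (GINS3 0.59, RFC4 0.49) and not called at 24 h (-0.17 and -0.12). POLA2 declined in parental cells with a half-life of 8.12 h, was not called slower without CNOT1 and fell at both times. PCNA declined with a half-life of 11.7 h in parental cells and was not called at either time on that scale. DSCC1 rose at 8 h with a parental slope of -0.0348 that was not called.

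Sequence features of the mRNAs were compared with those of all protein-coding genes. The median coding length was 1682 bases against 1278 over 19677 protein-coding genes, and the median 3′ UTR 746 against 823 bases. The motif TGTANATA of Pumilio proteins was found in the 3′ UTR of 25% of members and 22.6% of protein-coding genes, and ATTTA in 57.7% and 62.1%. Across the members, the response at 8 h had a Pearson r of -0.05 and a Spearman rho of -0.04 with the length of the 3′ UTR, and of -0.30 and -0.407 with the GC share at the last base of codons, given as a description. Of the 15 members with a promoter match, 4 rose and 9 fell at 8 h and 2 rose and 10 fell at 24 h. Of the 29 without one, 8 rose and 11 fell at 8 h, and 6 rose and 16 fell at 24 h, so that members with a match lay in both directions.

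Other genes of the same pathway also moved in both directions. Of 47 further replication genes, 13 rose and 18 fell at 8 h, and 13 rose and 27 fell at 24 h (18 and 15 with ERCC scaling). At 24 h TICRR (1.26 ± 0.06), which joins CDC45 to origins, the histone chaperone gene ASF1A (1.1 ± 0.11) and DBF4 (0.96 ± 0.12), the activating subunit of the CDC7 kinase, rose most. Among those that fell were SAMHD1, which breaks down deoxynucleotides (-1.53 ± 0.08), and POLE4 (-1.48 ± 0.10). Of 33 regulators of the G1/S border 31 were tested, and 13 rose and 15 fell at 24 h, with a median of -0.14 and a mean of 0.08. CDKN1B, which encodes the cyclin-dependent kinase inhibitor p27, went from 26.6 and 26.2 TPM to 209 and 200 (2.93 ± 0.07). TFDP2 (2.01 ± 0.13) and the phosphatase gene CDC25A (1.58 ± 0.05) followed. E2F1 fell from 14.2 and 16.1 TPM to 4.76 and 4.15 (-1.66 ± 0.08), beside its partner TFDP1 (-1.71 ± 0.05) and the inhibitor gene CDKN2C (-1.75 ± 0.14). Of 38 mitosis genes, 20 rose and 5 fell at 8 h, and 10 rose and 22 fell at 24 h (13 and 9 with ERCC scaling). Cell cycle stage was not measured, and its part in these levels was not tested.

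Some values may hold reads of neighbouring genes, since 33 members overlap another annotated gene, 15 of them a protein-coding one, and whether strand was used in counting was not stated. RFC5 overlaps WSB2 on the opposite strand, which was lower by 2.98 at 8 h and 3.15 at 24 h (both passed the test). TYMS overlaps ENOSF1 (-0.59 and -1.97, both called) and RPA3 overlaps UMAD1 (-0.25, adjusted p = 0.235, and -1.62, called). RFC4 overlaps EIF4A2, which was higher by 1.14 and 1.31, and CHAF1B overlaps MORC3 on the same strand (1.21 and 1.82). Same-strand neighbours were also called at both times for FEN1 (FADS2, -0.94 and -1.17) and POLA2 (AP000944.2, 1.11 and 0.98). On the opposite strand TPRA1, which overlaps MCM2, and AP4M1, which overlaps MCM7, were higher by 1.02 and 1.09 at 24 h, both called. How far these or other neighbours entered the values of the members they overlap was not tested.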

How the data were processed

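RNA of 3 DLD-1 lines was sequenced with a stranded total RNA kit after removal of ribosomal RNA, per the labels' protocols. Per the submitters' processing notes the tools were featureCounts, SAMtools, DESeq2, RSEM and STAR 2.5.1b, with build hg38, and the role of each is not given in the sources used here. The steady-state table deposited by the authors holds TPM per gene, and the triptolide table deposited by the authors holds raw counts per gene, with 92 ERCC spike-ins.

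TPM were scaled by TMM and tested as log2(TPM + 0.5) with limma 3.58.1 (R 4.3.3, trend and robust) over 14921 genes with at least 1 TPM in 2 or more libraries. Counts were tested with edgeR 4.0.16 (quasi-likelihood) over 16806 genes, as slopes per line scaled to 56 ERCC RNAs with a mean of at least 10 counts, and at 0 h with TMM. Calls have a Benjamini-Hochberg adjusted p below 0.05 over all genes tested. Errors of differences are standard errors. Nothing in the labels says that the 2 libraries of a group came from separate cultures, so p-values measure the spread between libraries, which may be technical. The fits were tested on simulated data.

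The members, the other gene lists and the rule for named genes (in each role, up to 2 called members with the largest rise and up to 2 with the largest fall in the CNOT1-AID response, up to 3 each way in other comparisons, the 2 largest differences where none passed, and CNOT1 and CNOT4) were chosen with earlier results of these data known. Genes named beyond that rule, such as those beside a count, were chosen after their values were seen. One gene that the rule would name is not reported here. Alternatives were the scaling, the filter, the pseudocount, DESeq2 1.42.0, the time range, a replicate block and leaving out each library. The correlation of deviations between same-numbered libraries ran from -0.2075 to 0.1147, so the numbers were not treated as pairs.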

Additional observations from a re-analysis of the deposited data

Results flagged for a closer look

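These results are listed because a direct test found that 2 lines or 2 times differed in their response or in their rate of mRNA loss. The response to auxin differed between CNOT1-AID and parental cells for 30 members at 8 h and 38 at 24 h, and between 24 h and 8 h in CNOT1-AID cells for 23. The slope under triptolide differed from parental for 15 members in CNOT1-AID cells, and between CNOT1-AID and CNOT4-AID cells for 39.

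At 8 h the response of CNOT1-AID cells exceeded that of parental cells most in the licensing factor CDT1 (1.173 on the log2 scale), SLBP (0.734) and the exonuclease EXO1 (0.597). It fell short most in RPA3 (-0.887), GINS2 (-0.858) and GINS4 (-0.748). At 24 h CDT1 (1.03), DTL (0.977) and SLBP (0.77) led upward, and FAM111B (-1.609), RPA3 (-1.388) and TYMS (-1.375) downward. Between 24 h and 8 h in CNOT1-AID cells, DTL moved up by 0.495, and FAM111B (-1.559), POLA1 (-1.054) and POLE (-0.871) moved down.

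The slope in CNOT1-AID cells was above that in parental cells most for CDT1 (0.26 log2 units per hour), GINS3 (0.224) and BLM (0.221). Against CNOT4-AID cells the same genes led, with BLM at 0.341, CDT1 at 0.336 and GINS3 at 0.323.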

How the results depend on the processing

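With ERCC scaling the CNOT1-AID response had 27 members higher and 5 lower at 8 h and 18 and 18 at 24 h, and without scaling 23 and 6, and 17 and 21. Of the 24 members called lower at 8 h 15 changed sign with ERCC scaling, among them MCM6 (0.012), MCM2 (0.021) and CHAF1B (0.151), and of the 32 at 24 h 5 did, among them UNG (0.166, and 0.05 without scaling). In the CNOT4-AID response the 1 call at 8 h became 0 with ERCC scaling, without scaling, without a filter and with the replicate block, and the 5 at 24 h became 0 without scaling, 1 without a filter and 0 with the block. Untreated CNOT1-AID against parental gave 4 calls with ERCC scaling and 6 without scaling, and untreated CNOT4-AID against parental 4 and 48, with UNG at -0.11 and UHRF1 at -0.163 without scaling. Slopes of CNOT1-AID against parental gave 32 calls with TMM and 1 over 0 to 6 h, those of CNOT1-AID against CNOT4-AID 12 over 0 to 6 h, and those of CNOT4-AID against parental 23 with DESeq2 (4218 of all genes, against 142 by edgeR) and 2 without a filter. At 0 h the CNOT1-AID count was 1 with ERCC scaling, with MCM4 at 0.067, and the CNOT4-AID count was 1 with ERCC scaling and 3 without a filter. The cause was not tested.

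Leaving out 1 library gave 11 to 14 higher and 20 to 24 lower for CNOT1-AID at 8 h, and 7 to 8 and 32 to 33 at 24 h. It gave 0 to 2 calls for CNOT4-AID at 8 h, 0 to 10 at 24 h and 0 to 3 against parental at 24 h. The CNOT1-AID response against parental ranged from 23 to 33 and from 34 to 39, and 24 h against 8 h from 18 to 25. The untreated comparisons ranged from 9 to 17 for CNOT1-AID and from 3 to 12 for CNOT4-AID. Slopes ranged from 12 to 19 for CNOT1-AID and from 0 to 46 for CNOT4-AID against parental, and from 26 to 51 between the 2. The 0 h counts ranged from 1 to 27 and from 3 to 26. A replicate block gave 13 higher and 24 lower at 8 h and 8 and 32 at 24 h for CNOT1-AID, and 15 calls for its slopes. Of 3163 values of 100 single results under alternatives, 3005 kept direction and call, 136 lost the call, 13 gained it, 1 moved and 8 reversed. Depth was not given for the TPM table.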
